A study of Mus musculus with 85 samples.

Results

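The miR-23/27/24 miRNAs were followed through 85 small RNA libraries from mouse heart. The rows taken were chosen by name: mmu-miR-23a-3p, mmu-miR-23b-3p, mmu-miR-27a-3p, mmu-miR-27b-3p, mmu-miR-24-3p, mmu-miR-24-1-5p, mmu-miR-24-2-5p and mmu-miR-3074-5p (mmu for mouse, left out from here on), which are 8 of the 1977 mature miRNAs counted. Together they held 2.10% of all counts. The hearts came from female mice of inbred strains in the HMDP (Hybrid Mouse Diversity Panel), which is used for genetic mapping. Every mouse received 8 weeks of chow and then 8 weeks of HF/HS (high-fat/high-sucrose) feeding and was 16 weeks of age, so the libraries form 1 group with no chow-only or untreated control. Each library was 1 heart, and the strain of each heart is not used here, so differences between libraries can hold strain, animal and library preparation at once.

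MiR-23, miR-27 and miR-24 are made from clusters of neighbouring hairpins, each cut from 1 primary transcript. Mammals carry the cluster at a pair of loci, and the members at the 2 loci are paralogs: miR-23a and miR-27a come from one, miR-23b and miR-27b from the other, and both make the same miR-24-3p. Of each hairpin, 1 arm usually enters the Argonaute protein as the guide and pairs with targets through its seed (bases 2 to 8), while the passenger arm is mostly degraded. The family is best known in vessels, where its members act on endothelial growth and sprouting, and it is also present in cardiomyocytes. MiR-3074 is annotated on the opposite strand of the miR-24 hairpins.

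In the GRCm38 annotation, both clusters lie on the plus strand in the order miR-23, miR-27, miR-24. The Mir23a, Mir27a and Mir24-2 hairpins lie at chr8:84208518-84208592, chr8:84208672-84208758 and chr8:84208815-84208921, with 79 and 56 bases between neighbours. Neither Mir23a nor Mir27a overlaps another annotated gene, while the end of Mir24-2 touches an exon of the lincRNA Gm26532. The Mir23b, Mir27b and Mir24-1 hairpins lie at chr13:63300484-63300557, chr13:63300712-63300784 and chr13:63301208-63301275, with 154 and 423 bases between neighbours. These 3 lie inside the protein-coding gene 2010111I01Rik and opposite Fancc, which is on the minus strand. Mir23b is in no annotated exon of either gene, and Mir27b and Mir24-1 overlap exons of transcripts of 2010111I01Rik that are not protein-coding or are marked for nonsense-mediated decay. Mir3074-2 at chr8:84208825-84208907 and Mir3074-1 at chr13:63301199-63301283 are on the minus strand.

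The mature sequences below show what the counts have to tell apart. They are RefSeq sequences of GRCm38.p6, written 5′ to 3′, and 7 of the 8 members had one in the table used. Capitals mark the seed, and in the miR-27 pair also the base that differs.
miR-23a-3p: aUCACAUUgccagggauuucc
miR-27a-3p: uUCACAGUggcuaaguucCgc
miR-27b-3p: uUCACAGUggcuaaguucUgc
miR-24-3p: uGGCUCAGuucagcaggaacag
miR-3074-5p: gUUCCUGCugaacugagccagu
The paralogs miR-27a-3p and miR-27b-3p share their seed and differ at 1 of 21 bases (C19U, counted from the 5′ end, with the miR-27a base first). How reads that fit both paralogs were counted is not given in the sources used here, and the shares of a and b below depend on it. The same holds for reads of miR-24-3p and miR-3074-5p, which fit 2 loci, and for the levels and shares of these miRNAs. MiR-3074-5p and miR-24-3p overlap by 20 bases on opposite strands at both loci, so a read of one falls on the other if counting ignored the strand. The strand setting is also not given.

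The passenger arms of miR-24 are the mature products that differ between its loci. In the following sequences capitals mark the bases that come after the 16 that both arms share.
miR-24-1-5p: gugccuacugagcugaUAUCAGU
miR-24-2-5p: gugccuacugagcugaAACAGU
The hairpins show both arms in capitals, the 5p arm first.
Mir24-1: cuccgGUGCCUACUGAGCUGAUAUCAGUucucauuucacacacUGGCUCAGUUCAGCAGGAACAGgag
Mir24-2: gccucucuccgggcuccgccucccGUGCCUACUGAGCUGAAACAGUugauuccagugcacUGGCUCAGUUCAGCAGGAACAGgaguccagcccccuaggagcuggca

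The libraries held 1457 to 30202 counts, with a median of 12248, and library 14 was the shallowest. The cardiomyocyte miRNAs miR-1a-3p, miR-133a-3p, miR-208a-3p and miR-499-5p had counts in all 85 libraries, and the 4 summed to 17.6% to 29.2% of the counts of a library. The libraries fell into 2 sets on the first principal component of the 46 miRNAs outside the members that passed the low-count filter, which held 75.8% of the variance. Set A has 58 libraries and set B has 27, and the labels do not name such a split, so the sets are not conditions of the study and were not tested against each other. All of set B carries library numbers 1 to 10, 15 to 18, 20, 21 or 49 to 59. The 3 fibroblast miRNAs listed summed to 0.436% to 1.42% of counts in set A (median 0.809%) against 1.01% to 2.03% in set B (median 1.34%), although miR-214-3p had only 6 counts in all. The 4 leukocyte miRNAs listed summed to 0.686% to 4.20% in set A against 0.349% to 1.03% in set B. Most of that sum was miR-142a-3p, with 14800 counts in all, against 1111 of miR-223-3p, 934 of miR-142a-5p and 699 of miR-150-5p. The part of these lists in the results below was tested only for the paralog ratios. In whole-heart RNA fewer cells of a type cannot be told apart from less RNA per cell.

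MiR-27b-3p led the members, with 9809 counts in all and between 7 and 267 per library (median 108). Its level was 2820 to 12689 CPM (a library's counts scaled to a fixed total), with a median of 8771. MiR-24-3p, the product that both clusters share, was next, with a median of 4975 CPM and a range of 1897 to 9478. MiR-27b-3p was above miR-24-3p in 84 of 85 libraries. On the log2 scale the ratio of their counts was 0.78 ± 0.45 (SD, n = 85). The lengths of the printed members are within 2 bases of each other, so counts were compared without a length correction, and how well each sequence is captured was not measured.

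The 3 less abundant guides changed order between the sets. MiR-23a-3p had a median of 2264 CPM (718 to 8067), miR-27a-3p of 2044 (1163 to 3920) and miR-23b-3p of 1583 (461 to 4911). MiR-24-3p exceeded miR-23a-3p in 81 of 85 libraries, and the 4 exceptions were in set B. MiR-23a-3p exceeded miR-27a-3p in 22 of 58 libraries of set A and in 27 of 27 of set B. MiR-27a-3p exceeded miR-23b-3p in 51 of 58 libraries of set A and in 2 of 27 of set B. Neighbours from miR-23a-3p downward therefore had no single order across the hearts: the mean log2 ratio of miR-23a-3p to miR-27a-3p, 0.35, was smaller than its SD of 0.90. MiR-3074-5p was lowest of the 6 members found in every library, with a median of 842 CPM and 1 to 28 counts per library.

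**Figure D1:**
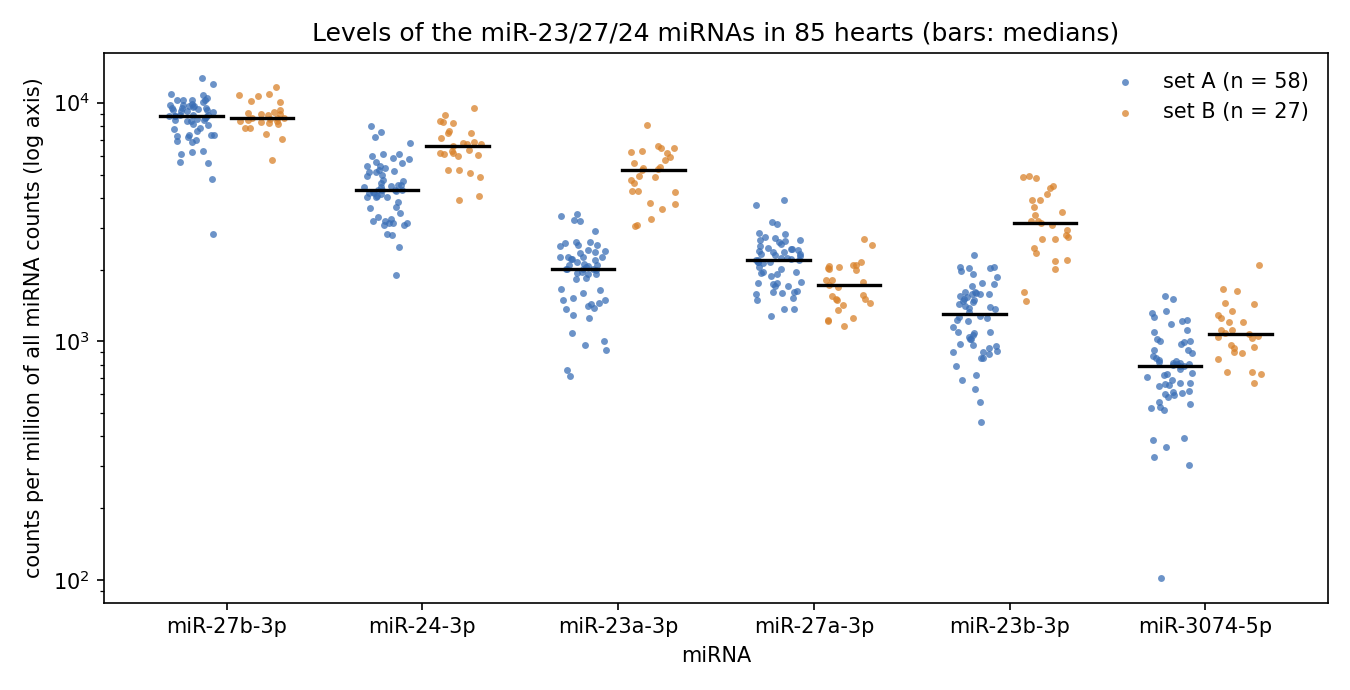
Level of 6 members in each heart library, in CPM on a log axis, with points in blue for set A (n = 58) and orange for set B (n = 27) and a bar at the median of each set. The miR-23 points of set B sit above most of set A (medians 5201 against 2018 for miR-23a and 3129 against 1304 for miR-23b), while the miR-27b medians are 8647 and 8831.

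The levels of miR-27b and miR-24 varied less between hearts than those of most miRNAs that passed the low-count filter, and miR-23 varied more. Over all 85 libraries the SD of the log2 CPM after TMM normalization, which scales libraries by their trimmed mean ratio, was 0.29 for miR-27b-3p and 0.33 for miR-24-3p. These were the 4th and 9th lowest of the 51 miRNAs that passed the filter, whose median SD was 0.51. The SDs of miR-23a-3p and miR-23b-3p were 0.62 and 0.61, and the SD of miR-27a-3p was 0.39. Without TMM the SDs were 0.30 for miR-27b-3p, 0.45 for miR-24-3p, 0.75 for miR-23a-3p, 0.72 for miR-23b-3p and 0.34 for miR-27a-3p. Ranks were taken with TMM only, and each SD includes counting error, which differs with the count. The miR-23 means with TMM differed between the sets: set A minus set B was -1.05 for miR-23a-3p and -0.94 for miR-23b-3p on the log2 scale. Of the 51 miRNAs these differences ranked 18 and 20 by size, and the median size was 0.79. MiR-27a-3p was higher in set A by 0.57, miR-24-3p lower by 0.28 (-0.28) and miR-27b-3p higher by 0.21, but these depend on the scaling. Without TMM the means of miR-27b-3p were 13.06 for set A and 13.12 for set B, the other way round. Those of miR-24-3p were then 12.13 and 12.69, farther apart, and those of miR-27a-3p 11.17 and 10.86, closer together.

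The a paralog held most of the miR-23 counts and the b paralog most of the miR-27 counts. MiR-23a-3p held 60.8% of all miR-23 counts (3135 of 5157, 95% Wilson interval 59.5% to 62.1%). MiR-27a-3p held 19.4% of all miR-27 counts (2365 of 12174, 18.7% to 20.1%). These intervals and those below cover counting error only. Per library the miR-23a share was 40.9% at the lowest, 60.3% at the median and 83.3% at the highest, with a mean of 60.3% ± 8.48 (SD, n = 85). The miR-27a share was 11.9%, 19.3% and 36.4%, with a mean of 19.5% ± 4.88. Thus miR-23a was the larger paralog in 78 of 85 hearts, and miR-27a in 0 of 85.

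Within a heart the a share was higher for miR-23 than for miR-27 in 85 of 85 libraries. The difference was 40.9 percentage points on average (SD 8.80), and it ran from 22.6 to 59.6. A two-sided permutation test that swapped the 2 shares within libraries gave p = 1e-05, the smallest that 100000 resamples can give. The difference was 39.04 points for set A and 44.7 for set B, each with that p. In 80 libraries the Wilson intervals of the 2 shares lay apart, and the 5 others were libraries 14, 33, 44, 46 and 78. Library 14, at both upper extremes, had 5 of 6 miR-23 counts and 4 of 11 miR-27 counts from the a paralog.

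**Figure D2:**
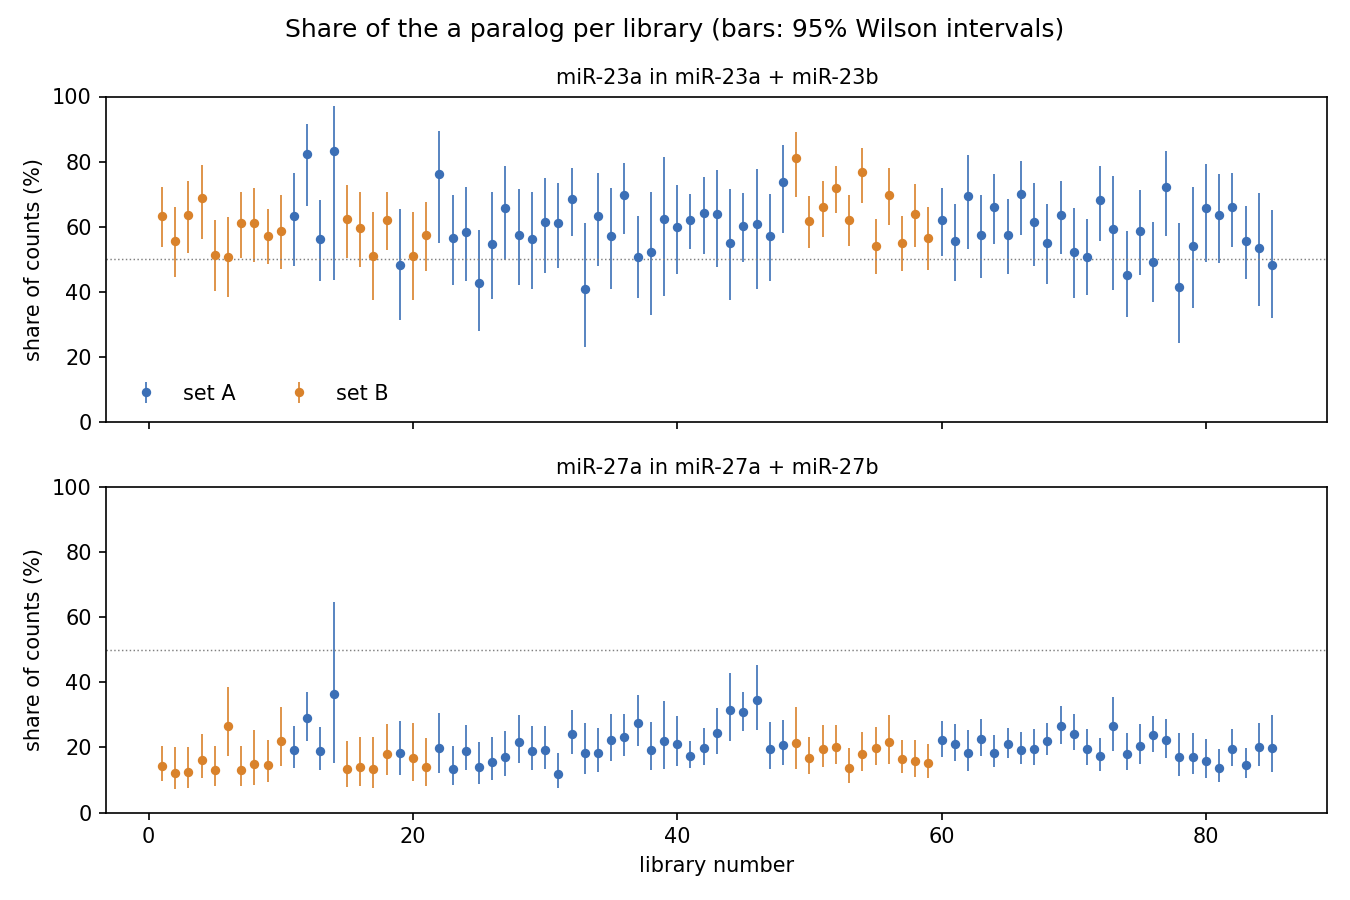
Share of the a paralog (%) in miR-23 (upper) and miR-27 (lower) in each library, by library number, with bars for the 95% Wilson interval and a dotted line at 50%. Blue points are set A and orange points set B. The miR-23a share lies mostly above the line and the miR-27a share below it in all 85 libraries.

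Most of the spread of the paralog shares between hearts was of the size that counting error gives. The SD of the miR-23a share was 8.48 points, of which binomial counting error alone gives 7.33, leaving 4.27. A chi-square test of a constant share gave 1.41 per degree of freedom (p = 0.00791). It was 1.14 within set A (p = 0.221) and 1.997 within set B (p = 0.00184), so the excess over counting error in set A was not detectable at this depth. For the miR-27a share the SD was 4.88, counting error gives 3.75, and 3.12 was left, with 1.69 per degree of freedom (p = 7.37e-05). Here set A kept the excess (1.66, p = 0.00122) and set B did not (0.878, p = 0.643). Mean miR-27a shares were 20.8% ± 4.85 in set A against 16.6% ± 3.56 in set B, and mean miR-23a shares 59.8% ± 8.86 and 61.3% ± 7.66, so each pair of sets overlapped.

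Other paralog or arm pairs gave a scale for this. Let-7a-5p took 51.2% of let-7a and let-7c, and its chi-square per degree of freedom was 3.69. MiR-26a-5p in miR-26 gave 1.88 and miR-148a-3p in miR-148 gave 3.04. MiR-1b-5p with miR-1a-3p, from opposite strands, gave 17.5 at far higher counts. MiR-126b-3p with miR-126a-5p, which lie on opposite strands of 1 hairpin as miR-3074 and miR-24 do, gave 0.913 (p = 0.702). Deeper pairs reach a larger chi-square for an equal spread. The SD beyond counting error was 2.56 points for miR-26, 3.12 for miR-27, 3.65 for let-7, 4.27 for miR-23 and 4.63 for miR-148. For the pairs from opposite strands it was 2.985 points for miR-1 and 0 for miR-126. The differences between pairs were not tested.

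The a shares of miR-23 and miR-27 did not rise together past the threshold in either set, but these tests had little spread to work with. Spread beyond counting error was not detectable for miR-23a in set A or for miR-27a in set B (1.14 and 0.878 per degree of freedom). A low r therefore does not show that the shares vary independently. The log2 ratios of a to b had Pearson's r = 0.281 in set A (permutation p = 0.0334, adjusted 0.0668 over 2 relations) and Spearman's rho = 0.162 (p = 0.223). Without libraries 12 and 14, the 2 farthest from the median, r was 0.0825, so the set A value rests on those libraries. In set B r was 0.276 (permutation p = 0.164, adjusted 0.164), rho was 0.194 (p = 0.332) and r was 0.111 without libraries 49 and 54. Against summed markers of 6 cell types, 0 of 12 relations in each set passed an adjusted threshold of 0.05 by permutation test, and 1 in each set had an unadjusted p under 0.05. In set A that was the miR-27 ratio with smooth muscle miRNAs (r = -0.319, rho = -0.317, permutation p = 0.0141, adjusted 0.169). In set B it was the miR-27 ratio with fibroblast miRNAs (r = -0.467, rho = -0.439, permutation p = 0.0138, adjusted 0.166). The fibroblast relation, at r = -0.209 in set A, passed there by partial correlation given library total and number (-0.421, adjusted permutation p = 0.0143). In set B it passed only without libraries 58 and 59 (-0.581, adjusted permutation p = 0.028), a choice made after seeing the data. In set B spread of the miR-27a share beyond counting error was not detectable, so a relation of its ratio there is not established. In the fibroblast list miR-199a-3p had 9607 counts, against 996 of miR-199a-5p and 6 of miR-214-3p.

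Between the miRNAs of one cluster the shares spread more widely, with an SD beyond counting error of 12.8 points for miR-23a in the chr8 cluster and 6.56 for miR-23b in the chr13 cluster. MiR-23 held 29.8% of miR-23 and miR-27 together (5157 of 17331), with a per-library range of 15.2% to 54.1% and 10.8 per degree of freedom. In the chr8 cluster, miR-23a-3p held 30.4% to 80.9% of miR-23a and miR-27a, with a median of 52.2% and 5.86 per degree of freedom (p = 5.12e-59). In the chr13 cluster, miR-23b-3p held 5.77% to 38.96% of miR-23b and miR-27b, with a median of 14.9% and 5.11 per degree of freedom (p = 1.01e-47). The greater part of that spread lay between the sets.

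Both clusters had more miR-23 relative to miR-27 in set B. The log2 ratio of miR-23a to miR-27a was -0.19 ± 0.46 in set A against 1.504 ± 0.35 in set B, a difference of 1.69 or 3.23-fold. The 2 sets did not overlap, since set A reached 0.80 at the highest and set B started at 0.85. The sets were drawn from the other miRNAs of these same libraries, and the median size of their level difference was 0.79 over the 51 miRNAs. How many ratios of other miRNA pairs lie apart in this way was not counted, so the gap is not shown to be particular to this cluster. The log2 ratio of miR-23b to miR-27b was -2.71 ± 0.44 in set A against -1.499 ± 0.44 in set B, a difference of 1.21 or 2.31-fold, and 9 of 27 libraries of set B lay within the range of set A. Against these, the a to b ratio moved by 0.10 for miR-23 and by -0.38 for miR-27. Within set B the ratio in the chr8 cluster varied no more than counting error gives (0.902 per degree of freedom, p = 0.608), and within set A slightly more (1.45, p = 0.0145). The chr13 cluster gave 2.06 in set B (p = 0.00118) and 1.38 in set A (p = 0.0305).

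**Figure D3:**
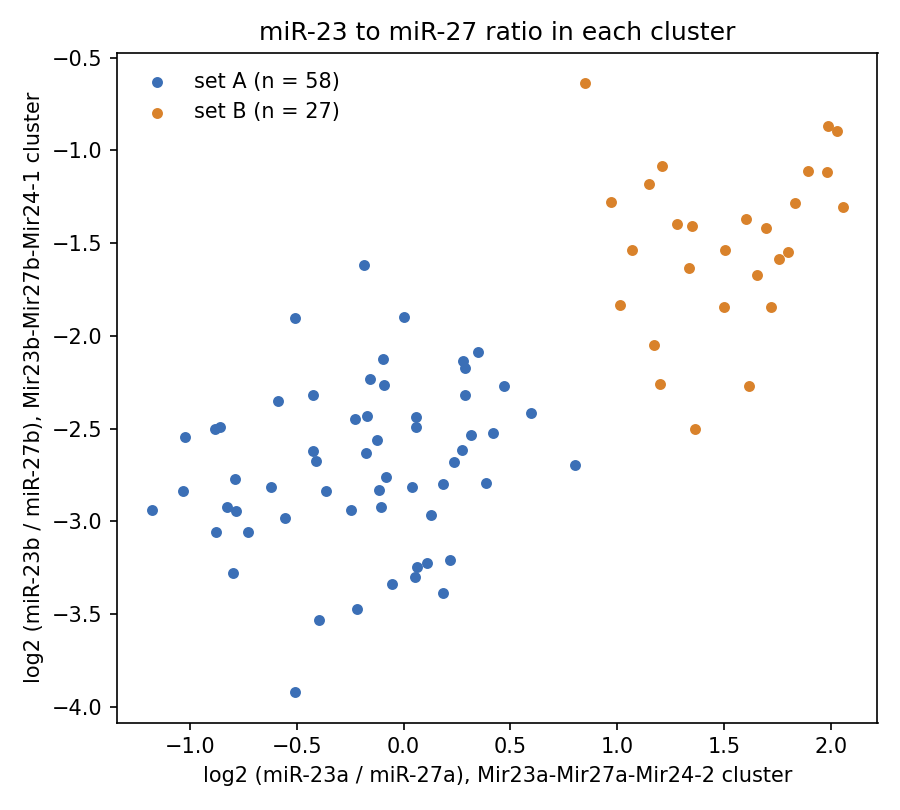
Log2 ratio of miR-23 to miR-27 counts in the chr8 cluster (x axis, miR-23a to miR-27a) and the chr13 cluster (y axis, miR-23b to miR-27b), 1 point per library. Set A (blue) has a mean of -0.19 on x and -2.71 on y, and set B (orange) 1.504 and -1.499, with no overlap between the sets on x.

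MiR-24-3p held a like part of the family in both sets. It held 24.8% of the counts of miR-24, miR-23 and miR-27 together (5701 of 23032, interval 24.2% to 25.3%). Per library it held 16.8% at the lowest, 24.3% at the median and 39.3% at the highest, and the highest was library 14. The mean was 24.1% ± 4.30 in set A against 25.8% ± 3.503 in set B, and the spread was 1.99 per degree of freedom (p = 1.82e-07). Its sequence is the same from both loci, so its counts cannot be divided between them. Its share also depends on how reads that fit both loci were counted, which the interval does not cover.

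The passenger arms that could divide miR-24 were almost absent. MiR-24-1-5p, from the chr13 locus, had 8 counts, 1 in each of 8 libraries, and miR-24-2-5p, from the chr8 locus, had 5 counts, 1 in each of 5 libraries. Together they were 13 of the 5714 counts of the miR-24 hairpins, or 0.228% (0.133% to 0.389%). MiR-24-2-5p made up 38.5% of the 13, with an interval of 17.7% to 64.5%, which takes in both the 60.8% of miR-23a and the 19.4% of miR-27a. At this depth the share of the 2 loci in miR-24 could not be read from the passenger arms.

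The other passenger arms were as rare. MiR-23a-5p had 0 counts beside 3135 of miR-23a-3p, which at a floor of 3 counts allows a share of up to 0.0957%. MiR-23b-5p had 3 of 2025 counts, all in library 9. MiR-27a-5p had 4 of 2369 (0.169%) and miR-27b-5p had 7 of 9816 (0.0713%). At each of these hairpins the 3p arm held nearly all counts.

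MiR-3074-5p was found beside the miR-24-3p on the opposite strand, at a share whose spread beyond counting error was not detectable at this depth. It held 14.8% of the counts of both (989 of 6690, interval 13.95% to 15.65%), with a lowest share of 5.13% in library 46, a median of 15% and a highest of 25.6% in library 6. The spread was no larger than counting error gives: 0.853 per degree of freedom (chi-square p = 0.830) over all libraries, 0.746 in set A against 1.12 in set B. Counting error alone gives an SD of 4.44 points here, at a median of 76 counts of both per library. A smaller real spread could therefore go unseen, and the test does not show a constant ratio. The mean share was 14.96% ± 3.91 in set A against 14.9% ± 4.34 in set B. The miR-3074 3p arms had 0 counts beside 989 of the 5p arm, which at the same floor of 3 counts allows up to 0.303%.

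Their levels rose together in set A, with r = 0.538 between log2 CPM values (permutation p = 5e-05, adjusted 0.0001 over 2 relations) and rho = 0.472 (p = 0.00029). Without libraries 46 and 78 r was 0.409. Set B had r = 0.0406 (permutation p = 0.840, adjusted 0.840), rho was 0.0140 (p = 0.945) and r was 0.126 without the 2 farthest libraries. The difference between the sets was not tested. Whether miR-3074-5p counts are reads of miR-24 could not be told from these values, because the strand setting is not given. In the other pairs from opposite strands, miR-1b-5p held 55.4% of the counts with miR-1a-3p and miR-126b-3p held 78.4% with miR-126a-5p. What these shares owe to the strand setting was not tested.

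**Figure D4:**
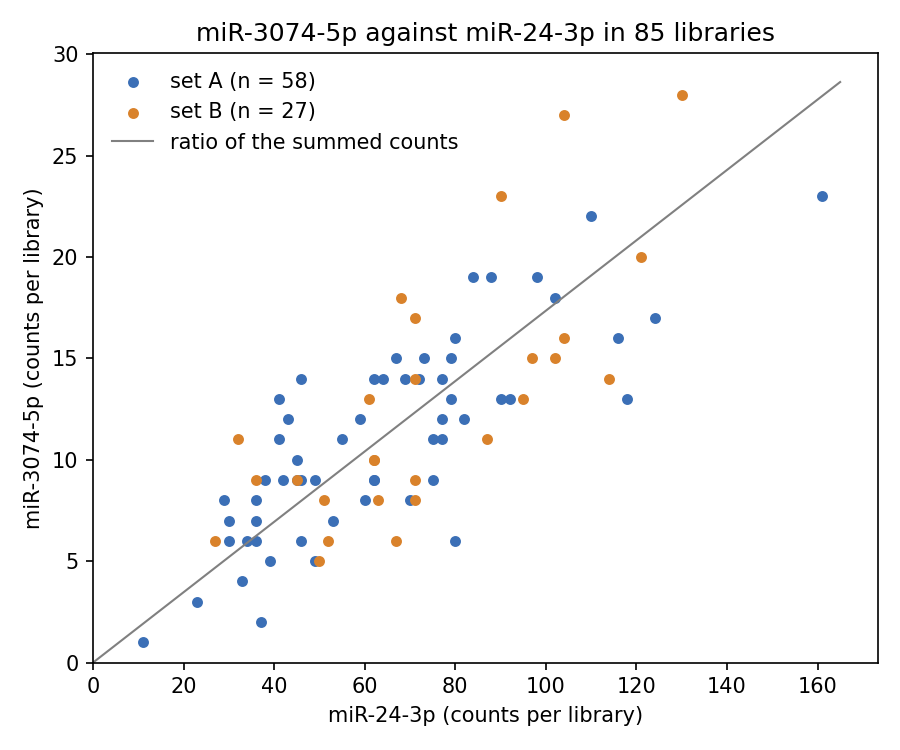
Counts of miR-3074-5p against counts of miR-24-3p, 1 point per library (blue set A, orange set B), with a grey line at the ratio of the summed counts. The points of both sets lie around the line, in which miR-3074-5p holds 14.8% of the counts of both.

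The level pairs among the 5 abundant members were tested within each set, 10 pairs in each, with Benjamini-Hochberg adjustment over the 10. In set A, 3 passed. MiR-23a-3p with miR-24-3p had r = 0.710 (permutation p = 1e-05, the smallest possible, adjusted 0.0001), rho = 0.636 and r = 0.642 without libraries 46 and 78. MiR-23b-3p with miR-24-3p had r = 0.363 (adjusted permutation p = 0.0253) and rho = 0.421, but 0.304 without the 2 farthest libraries (adjusted 0.0767). MiR-23b-3p with miR-27b-3p, neighbours in the chr13 cluster, had r = 0.341 (adjusted permutation p = 0.0288) and rho = 0.206, and 0.0862 without libraries 14 and 46.

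The other neighbours in a cluster did not pass with TMM scaling. MiR-23a-3p with miR-27a-3p had r = 0.191 in set A against 0.452 in set B (permutation p = 0.0179, adjusted 0.0895), and in set B it passed without libraries 53 and 55 (0.523, adjusted 0.038). MiR-27b-3p with miR-24-3p had r = 0.0196 in set A against 0.456 in set B (permutation p = 0.0171, adjusted 0.0895), but 0.194 in set B without libraries 6 and 15. MiR-27a-3p with miR-24-3p, neighbours in the chr8 cluster, had r = 0.114 in set A against -0.0956 in set B (adjusted permutation p = 0.495 and 0.678). The paralog pair miR-23a-3p with miR-23b-3p had r = 0.166 in set A against 0.345 in set B (permutation p = 0.0782, adjusted 0.128). In set B it also passed without libraries 49 and 54 (0.569, adjusted permutation p = 0.0296). MiR-27a-3p with miR-27b-3p had r = 0.0933 in set A against 0.109 in set B. In set B, 0 of 10 pairs passed by the permutation test after adjustment and 3 had an unadjusted p under 0.05. Among these 3 was miR-23a-3p with miR-24-3p, at r = 0.381 in set B (permutation p = 0.0491, adjusted 0.128) and 0.307 without libraries 6 and 15. Without TMM 9 of 10 pairs passed in set A, among them miR-23a-3p with miR-27a-3p (0.443) and miR-27b-3p with miR-24-3p (0.339), so which pairs are called depends on the scaling.

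**Figure D5:**
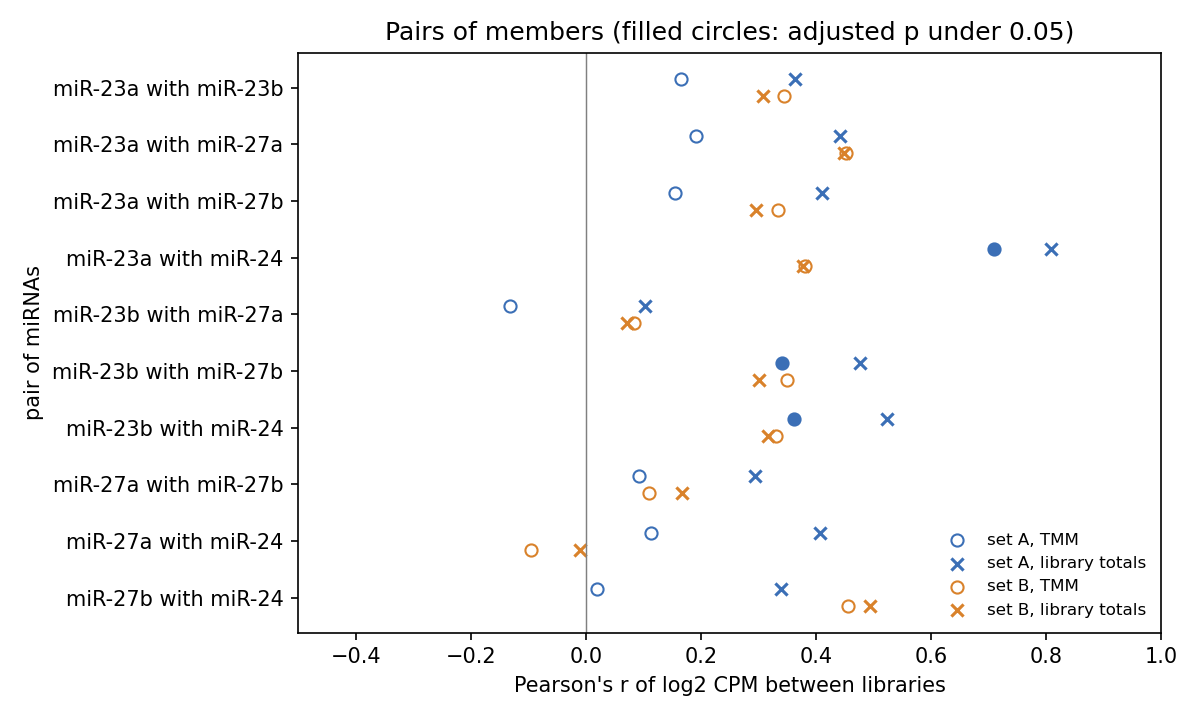
Pearson's r of log2 CPM between the members of each pair, for set A (blue) and set B (orange), with circles for TMM-scaled levels, filled where the adjusted permutation p is under 0.05, and crosses for levels scaled by library totals without TMM. Among the circles the miR-23a and miR-24 pair of set A is farthest to the right at 0.710, and its cross lies at 0.810.

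Outside the cluster, the miRNAs most like each member were named by the mean of r over the 2 sets among 46 others. For miR-24-3p they were miR-133a-3p (0.666), let-7b-5p (0.571) and let-7a-5p (0.510), and miR-23a-3p shared miR-133a-3p and let-7b-5p with values of 0.493 and 0.503. For miR-27b-3p they were miR-148a-3p (0.303), miR-29a-3p and miR-199a-3p, and for miR-27a-3p miR-22-3p (0.291), miR-145a-5p and miR-499-5p. For miR-23b-3p, 3 let-7 miRNAs came first (let-7a-5p, let-7d-5p and let-7c-5p), from 0.370 down to 0.364. Let-7d-5p passed in neither set after adjustment, with r = 0.266 in set A (adjusted permutation p = 0.509) and 0.461 in set B (adjusted 0.057). The means of let-7a-5p and let-7c-5p rest on set B. For let-7a-5p r was 0.0951 in set A (adjusted permutation p = 0.868 over 46) against 0.644 in set B (adjusted 0.00475). MiR-24-3p with miR-133a-3p had r = 0.573 in set A (adjusted permutation p = 0.000131) and 0.759 in set B (adjusted 0.00046). The first miRNA for miR-27a-3p passed in neither set (adjusted permutation p = 0.503 and 0.837), and that for miR-27b-3p passed in set A only (adjusted 0.0496 and 0.331). A member stood above all 46 in 3 cases: miR-24-3p for miR-23a-3p (0.546), miR-23a-3p for miR-27a-3p (0.322) and miR-23b-3p for miR-27b-3p (0.345). All of these pairs share libraries and depth.

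The last comparison was with library number, which numbers the libraries in the labels and is not stated to be an order of preparation. In the quasi-likelihood test of edgeR, adjusted by Benjamini-Hochberg, 4 of the 5 abundant members passed an adjusted p of 0.05, against 86.3% of all 51 miRNAs tested (41.2% rising and 45.1% falling), so the count is not a result about the members. MiR-23a-3p, miR-23b-3p and miR-24-3p had slopes of -0.13 ± 0.026, -0.13 ± 0.024 and -0.054 ± 0.014 log2 units per 10 libraries (SE). MiR-24-3p did not pass without the low-count filter (edgeR adjusted p = 0.547). MiR-27a-3p rose by 0.0572 ± 0.018 (edgeR adjusted p = 0.00243), but not past the threshold without TMM (0.0255, adjusted p = 0.145). MiR-27b-3p had a slope of 0.0219 (adjusted p = 0.0891), which passed with DESeq2 size factors (0.0338, adjusted p = 0.00861) and without the filter (0.058, adjusted p = 0.00342). Over all 51 miRNAs 21 rose and 23 fell with TMM, against 15 and 29 without it.

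With the set as a covariate 3 of 5 members passed (66.7% of the 51, with 37.3% falling and 29.4% rising), and the slopes of miR-23a-3p and miR-23b-3p were -0.0421 and -0.0527. Within set A only miR-23a-3p passed (-0.0543, edgeR adjusted p = 0.0392, with 45.1% of all 51 called and 23.5% falling), and within set B 0 of 5 passed in edgeR after adjustment (33.3% of the 51), where 1 had an unadjusted p under 0.05. The a to b log ratios of miR-23 and miR-27 were also set against library number within each set, and none of these 4 relations passed by permutation test. The lowest unadjusted p was 0.0485, for miR-23 in set B (r = 0.379, adjusted 0.151).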

How the data were processed

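Small RNA was measured in 85 mouse hearts, with 1 library per heart, all of 1 condition. Per the labels and the methods, the authors extracted RNA with the miRNeasy kit, made QIAseq miRNA libraries and sequenced them on a HiSeq. The submitters' processing notes name HISAT2 2.0.6, HTSeq 0.13.5 and mm10. The miRNA annotation, trimming, strand setting, treatment of multi-mapping reads and use of molecular identifiers are not given in the sources used here. The values the authors deposited are raw counts per mature miRNA, not normalized. All columns were used, and no pair among 3570 was a duplicate library (lowest chi-square per degree of freedom 1.29).

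The members and lists were chosen with earlier results of these data known. Shares are counts of a miRNA over the counts of the group named, with 95% Wilson intervals, and spread was tested by chi-square against a constant share. Log ratios used a pseudocount of 0.5. filterByExpr (minimum count 10 in at least 63 libraries, minimum total 15) kept 51 of 548 miRNAs with counts, 5 of the 8 members among them. Levels were TMM log2 CPM with a prior count of 2, in edgeR 4.0.16 and R 4.3.3. The sets come from k-means with 2 centres on the first component of the kept miRNAs that are no members. Relations were Pearson and Spearman correlations tested two-sided with 100000 permutations, and trends edgeR glmQLFTest, both with Benjamini-Hochberg adjustment at 0.05 and checked on simulated data. The miRNAs named are the members, their other arms, the comparison pairs, the cell type lists, and for each abundant member the 3 most alike. Alternatives were DESeq2 1.42.0 size factors and Wald test, no TMM, no filter, a prior count of 0.5, a pseudocount of 2, a minimum of 20 counts, the 84 libraries with at least 3062 counts, partial correlation, log2 total or set as a covariate, and each set alone. Sequences and loci are RefSeq and GENCODE records of GRCm38. Python 3.11.15, numpy 2.4.6, pandas 2.3.3, scipy 1.17.1 and matplotlib 3.10.9 were used. Depth was 1457 to 30202 counts per library.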

Additional observations from a re-analysis of the deposited data

How the results depend on the processing

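Of the 128 values recomputed for the shares, correlation counts and member counts, 117 kept the call or, for a count, stayed within 1.5 times of it; among these, level pairs in set A went from 3 to 2 (Spearman, DESeq2 size factors, deeper libraries) and trending members from 4 to 5 (both DESeq2 fits) or 3 (no TMM, set as covariate). The values for single relations and trends added 2 reversals, 15 losses and 14 gains of a call among 87. Of the spreads, miR-23a in miR-23 within set A (chi-square per degree of freedom 1.14), miR-27a in miR-27 within set B (0.878) and miR-23a in miR-23a and miR-27a within set B (0.902) no longer passed. The number of correlated level pairs in set A, 3, became 9 without TMM and 1 without the 2 farthest libraries, and in set B, 0, became 3 without the 2 farthest. Of the relations of paralog ratios with markers, 0 in each set, 1 passed in set A by partial correlation and 1 in set B without the 2 farthest libraries, in both cases miR-27 with fibroblast miRNAs. The r of miR-3074-5p with miR-24-3p in set B reversed from 0.0406 to -0.0390 with DESeq2 size factors. The trend of miR-27b-3p reversed from 0.0219 to -0.0101 without TMM and to -0.0183 in set B, and passed upward with DESeq2 or no filter. Members trending with library number fell from 4 to 1 in set A and to 0 in set B. Fewer libraries were fitted within a set, and the slopes of all abundant members were also smaller in size there. The slope of miR-23a-3p went from -0.128 over all libraries to -0.0543 within set A and -0.0066 within set B. With the set as a covariate it was -0.0421. The cause was not tested for any of these changes. The alternatives without the 2 farthest libraries, other than for the paralog ratios, and the pooled shares were chosen after seeing the data.

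No pairing between conditions was possible because all libraries form 1 group, with no replicate numbers shared between groups. The a shares of miR-23 and miR-27 were paired within libraries.

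The main limits are the depth, with medians of 21 to 108 counts per library for the 5 abundant members, the unknown multi-mapping and strand settings, and 2 sets of libraries that the labels do not explain.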
